A study of Rattus norvegicus with 20 samples.

Results

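The liver of the parental Long-Evans (*Turku/AB*) strain (L-E) was compared with that of Line-C, one of the lines that descend from crosses of L-E with Han/Wistar (*Kuopio*) rats (H/W). Both carry the wild-type *Ahr*, the gene of the aryl hydrocarbon receptor, so the comparison asks how far hepatic mRNA differs between a parent and a derived line that share this allele. The members were fixed by the sample titles and by the signal alone: 8 of the 20 arrays, 4 for each group, and the 7168 of 15923 ProbeSets whose mean log2 signal over the 20 arrays reached 4, the limit of expression. L-E is an in-bred strain, while the background of Line-C is a mixture of L-E and H/W genome whose blocks were not mapped in these data. All animals were males of 10 to 12 weeks that had received corn oil by gavage 19 hours before the liver was taken, and each array held the liver RNA of 1 rat. The other 12 arrays, from H/W and Line-A, which carry the mutant *Ahr*, and from Sprague-Dawley (S-D) rats with the wild-type *Ahr*, entered the estimate of the spread and are quoted beside single genes. Nothing in the labels says whether rats of a group were littermates.

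Liver RNA comes mostly from hepatocytes, which make plasma proteins and clear drugs, steroids and bile acids. Foreign compounds are oxidised by phase I enzymes such as the cytochromes P450, and are then coupled to glucuronic acid, sulfate or glutathione by the phase II transferases. Rat strains are known to carry different alleles in such gene families, which often lie as tandem copies. Genes of the major histocompatibility complex (MHC), named *RT1* in the rat, are among the most polymorphic of the genome and serve to tell inbred strains apart.

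No scan day held arrays of both groups. L-E replicate 1 was scanned on a day and chip lot apart from those of L-E replicates 2 to 4, and the 4 Line-C arrays shared a further day and lot with the 4 Line-A arrays, so that strain, day and lot cannot be told apart. The 3′ minus 5′ difference of the *Gapdh* control ProbeSets, which grows as RNA is degraded, was 0.28 ± 0.04 in L-E (SD, n = 4, from 0.23 to 0.34) and 0.45 ± 0.05 in Line-C (from 0.38 to 0.50). The ranges did not overlap. For beta-actin the same difference was 1.79 ± 0.10 against 2.06 ± 0.16, and for hexokinase -0.31 ± 0.02 against -0.37 ± 0.03. The part of RNA quality in the results was not tested. In bulk liver, fewer cells of a type and less mRNA per cell cannot be told apart.

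At a false-discovery rate of 1%, 535 of the 7168 expressed ProbeSets (7.46%) differed between Line-C and L-E, 239 higher in Line-C (3.33%) and 296 lower (4.13%). With 1 ProbeSet per gene, the one with the highest mean signal, 369 of 5388 genes were called (6.85%), 184 higher (3.41%) and 185 lower (3.43%). The median log2 difference over the expressed ProbeSets was 0.04. Among the ProbeSets called, 161 differed at least 2-fold, of which 105 were lower in Line-C, and 32 differed at least 4-fold. At 5%, 1544 ProbeSets were called (21.5%), 837 higher (11.7%) and 707 lower (9.86%). The arrays of the groups overlapped in 8 of the 535, and did not overlap in 2110 of all expressed ProbeSets (29.4%). With scan day as a random block 110 ProbeSets were called, and with only the 8 arrays of L-E and Line-C 200. When the arrays were set to equal medians, the split moved from 239 higher and 296 lower to 115 higher and 373 lower, with the median difference moving to -0.05. The share called was 5.85% at mean signals from 4 to 8, 10.2% from 8 to 12 and 8.84% above 12. A difference for which 1 group lay under 4 is given below as a lower bound against 4, together with the adjusted p from the fit to the signals as measured. Of 75 called genes described here, 22 were called under each of the 29 alternatives computed for single genes. Among these is the 5% rate, which cannot end a call made at 1%. With scan day as a random block 30 were called. Of these 30, *Gstt2*, *Id2*, *Sdf2l1*, *Pdia6*, *Igfbp2*, *Apoh*, *Maf* and *Ctnnb1* were not called with the 8 arrays alone (adjusted p from 0.0101 for *Maf* to 0.0311 for *Id2*). Equal array medians ended the calls of *Mgst3*, *Spink1*, *Col14a1*, *Hspa5*, *Pdia3*, *Dnajb11*, *Oas1a*, *Echs1*, *Igf1*, *Gc*, *Nr1h4*, *Nr1h3* and *Ctnnb1*, with adjusted p from 0.0103 for *Spink1* to 0.0855 for *Gc*.

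**Figure D1:**
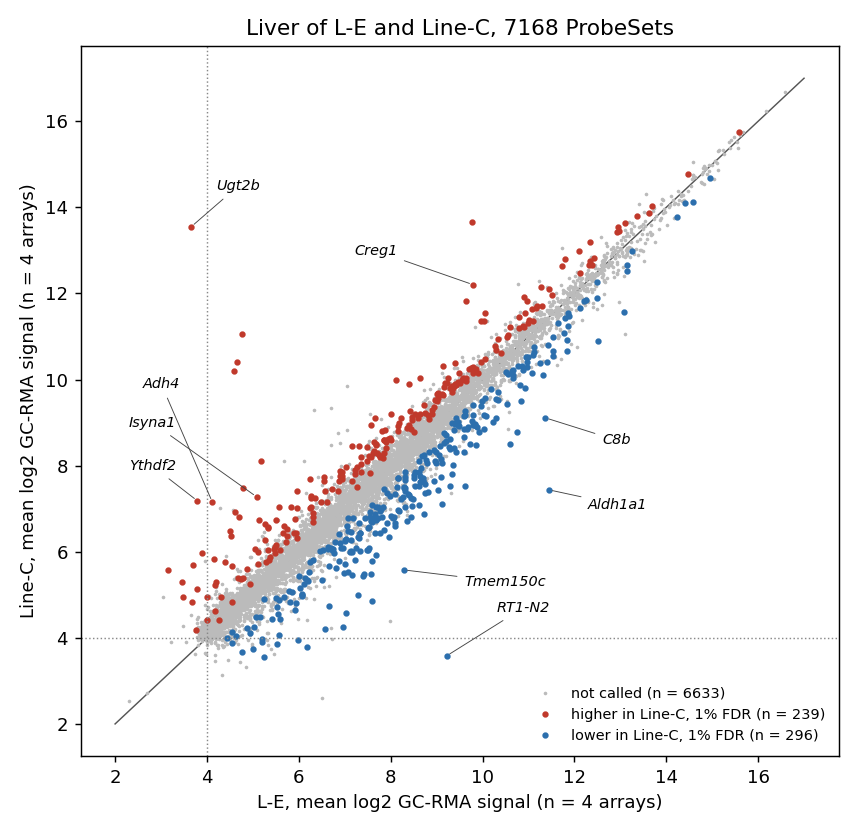
Mean log2 signal of 4 L-E arrays (horizontal axis) and of 4 Line-C arrays (vertical axis) for the 7168 expressed ProbeSets. Each point is 1 ProbeSet, the coloured ones are called at 1% false-discovery rate, 239 above and 296 below the diagonal, and *Ugt2b* and *RT1-N2* lie farthest from it among the labelled genes.

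The phase II transferases held the widest difference. *Ugt2b*, a UDP-glucuronosyltransferase that couples steroids and drugs to glucuronic acid, read 3.70, 3.62, 3.68 and 3.64 on the L-E arrays. On the Line-C arrays it read 13.67, 13.81, 13.32 and 13.41. The signal of this ProbeSet was thus under the limit of expression in every L-E liver and above it in every Line-C liver, at least 751-fold higher (adjusted p = 1.33e-17). A second *Ugt2b* ProbeSet, above the limit in L-E, rose from 4.65 ± 0.05 to 10.40 ± 0.19, a log2 difference of 5.75 ± 0.11 (SE, adjusted p = 1.07e-15). On the first ProbeSet H/W, the other parent of Line-C, was also under the limit, at 3.90, 3.57, 3.20 and 3.89. Line-A and S-D had means of 13.52 and 13.76 on it. On the same stretch of chromosome 14, *Ugt2b1* was at 10.26 ± 0.17 in L-E and 9.39 ± 0.54 in Line-C (adjusted p = 0.0669). *Ugt2b15* differed by 0.19 ± 0.14 (SE, adjusted p = 0.272) and *Ugt2b35* by 0.26 ± 0.07 (adjusted p = 0.0203), so that none of these relatives passed the 1% threshold. Probes of such near-identical copies can share transcripts, and which copy a ProbeSet reads was not tested.

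Next to *Ugt2b* in the order of measured genes, *Sult1b1*, a sulfotransferase of phenols and thyroid hormones, also rose. Its L-E arrays read 11.78, 11.79, 11.65 and 11.73 and its Line-C arrays 12.71, 12.87, 12.58 and 12.42, without overlap (1.88-fold, adjusted p = 5.39e-05). Line-A, at 12.47, was close to Line-C, and H/W lay between the groups at 12.16. *Gstt2*, a theta-class glutathione S-transferase on chromosome 20, rose from 6.91, 7.82, 8.13 and 7.73 to 8.95, 9.30, 9.11 and 9.07 (2.75-fold, adjusted p = 0.000188). The groups did not overlap, and L-E replicate 1 was the lowest array. *Mgst3*, a microsomal glutathione transferase, rose by 0.58 ± 0.13 (SE, adjusted p = 0.00833). Among the sulfotransferases that act on steroids, *Sult2a6* fell from 10.60 ± 0.57 to 8.49 ± 0.53 (adjusted p = 0.00454) and the estrogen sulfotransferase *Sult1e1* from 14.24 ± 0.05 to 13.79 ± 0.09 (adjusted p = 0.000974). Of 31 expressed phase II genes, 4 were called higher and 2 lower, and the median difference was 0.17 against 0.05 over all genes tested. *Mgst1*, another microsomal glutathione transferase, was at 14.15 and 14.18 (adjusted p = 0.693). The calls of *Ugt2b*, *Sult1b1* and *Gstt2* stood with scan day as a random block. Those of *Sult1e1*, *Sult2a6* and *Mgst3* did not (adjusted p = 0.0129, 0.0497 and 0.0756), and *Mgst3* reached 0.0301 without L-E replicate 2.

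Several genes outside drug metabolism rose as clearly. *Creg1*, which codes for a secreted glycoprotein of the lysosome, read 9.65, 9.49, 9.87 and 10.15 in L-E and 12.40, 12.03, 12.24 and 12.16 in Line-C (5.33-fold, adjusted p = 3.81e-07). The lowest Line-C array was above every L-E array. H/W was at 12.35 and Line-A, scanned on the same day as Line-C, at 9.94, so that Line-C stood at the level of H/W and Line-A at that of L-E (Line-C minus Line-A, adjusted p = 1.16e-06, in a comparison that called 80 of the 7168 expressed ProbeSets, 1.12%). A second *Creg1* ProbeSet had the same direction, with 0.91 ± 0.26 (SE, adjusted p = 0.0353). *Isyna1*, the enzyme that makes inositol phosphate from glucose phosphate, was at 5.09, 5.06, 5.06 and 5.11 in L-E and 7.97, 6.89, 6.89 and 7.35 in Line-C (4.58-fold, adjusted p = 9.95e-06). Its L-E values were almost equal and not far above the limit, and Line-A was at 5.44. *Kpna1*, an importin alpha that carries proteins into the nucleus, read 8.25, 8.49, 8.33 and 8.54 against 9.86, 10.14, 9.97 and 9.62 (2.81-fold, adjusted p = 4.15e-05). *H2az1*, a variant of histone H2A, rose from 10.06 ± 0.11 to 11.55 ± 0.34 (2.80-fold, adjusted p = 0.000113). For both genes Line-A, at 9.91 and 11.21, was nearer to Line-C than to L-E.

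The 15 genes with the widest rises also held receptors, regulators and enzymes of other kinds. *Itga1*, the alpha subunit of a collagen-binding integrin, read 3.58, 5.33, 5.05 and 4.50 in L-E and 7.19, 7.05, 7.24 and 6.23 in Line-C (4.97-fold, adjusted p = 0.00181), while Line-A was at 3.67 (Line-C minus Line-A, adjusted p = 0.000248). *Selenow*, a small selenoprotein, rose from 5.26, 5.25, 5.12 and 4.94 to 6.36, 6.73, 6.96 and 6.90 (3.02-fold, adjusted p = 0.00296). The means of H/W, Line-A and S-D were 5.12, 4.47 and 5.16, so that Line-C was the highest of the 5 groups for *Selenow*. *Id2*, an inhibitor of basic helix-loop-helix factors, rose from 9.64 ± 0.79 to 11.82 ± 0.72 (4.55-fold, adjusted p = 0.00116), while its other expressed ProbeSet was not called. *Adh4*, an alcohol dehydrogenase that also oxidises retinol, was at 4.12 ± 0.03 in L-E, just above the limit, and at 7.16 ± 0.36 in Line-C (8.24-fold, adjusted p = 0.00415). *Uba6*, a ubiquitin-activating enzyme, rose from 4.15 ± 0.35 to 5.82 ± 0.40 (adjusted p = 0.000984). *Ythdf2*, a reader of methylated adenosine in mRNA, read 2.98, 4.19, 4.15 and 3.83 in L-E and 9.23, 5.43, 5.54 and 8.54 in Line-C (at least 9.10-fold, adjusted p = 0.00367). The Line-C livers thus fell into a high and a lower pair for *Ythdf2*, and its other ProbeSet, under the limit in both groups, differed by -0.12. *Rtn4ip1*, a mitochondrial oxidoreductase, was at 3.46 ± 0.72 and 5.29 ± 0.82 (at least 2.44-fold, adjusted p = 0.00423) and the collagen gene *Col14a1* at 4.52 ± 0.21 and 6.37 ± 1.05 (adjusted p = 0.00864). *Spink1*, a secreted trypsin inhibitor, rose on 2 ProbeSets, by 1.99 on one and at least 3.25-fold on the other, which was under the limit in L-E, while another ProbeSet differed by -0.12 (adjusted p = 0.697).

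With scan day as a random block, *Creg1*, *Isyna1*, *Kpna1*, *H2az1* and *Id2* kept their calls, whereas the adjusted p was 0.0186 for *Itga1*, 0.0236 for *Selenow*, 0.0392 for *Adh4*, 0.0404 for *Ythdf2*, 0.0157 for *Uba6*, 0.0468 for *Rtn4ip1*, 0.0758 for *Col14a1* and 0.0612 for *Spink1*. Leaving out single arrays raised the adjusted p of *Selenow* to at most 0.0114 and that of *Rtn4ip1* to 0.0156, both without Line-C replicate 3. It reached 0.0150 for *Adh4* without the same array, 0.0140 for *Ythdf2* without L-E replicate 1, 0.0249 for *Spink1* without L-E replicate 2 and 0.0306 for *Col14a1* without Line-C replicate 2.

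**Figure D2:**
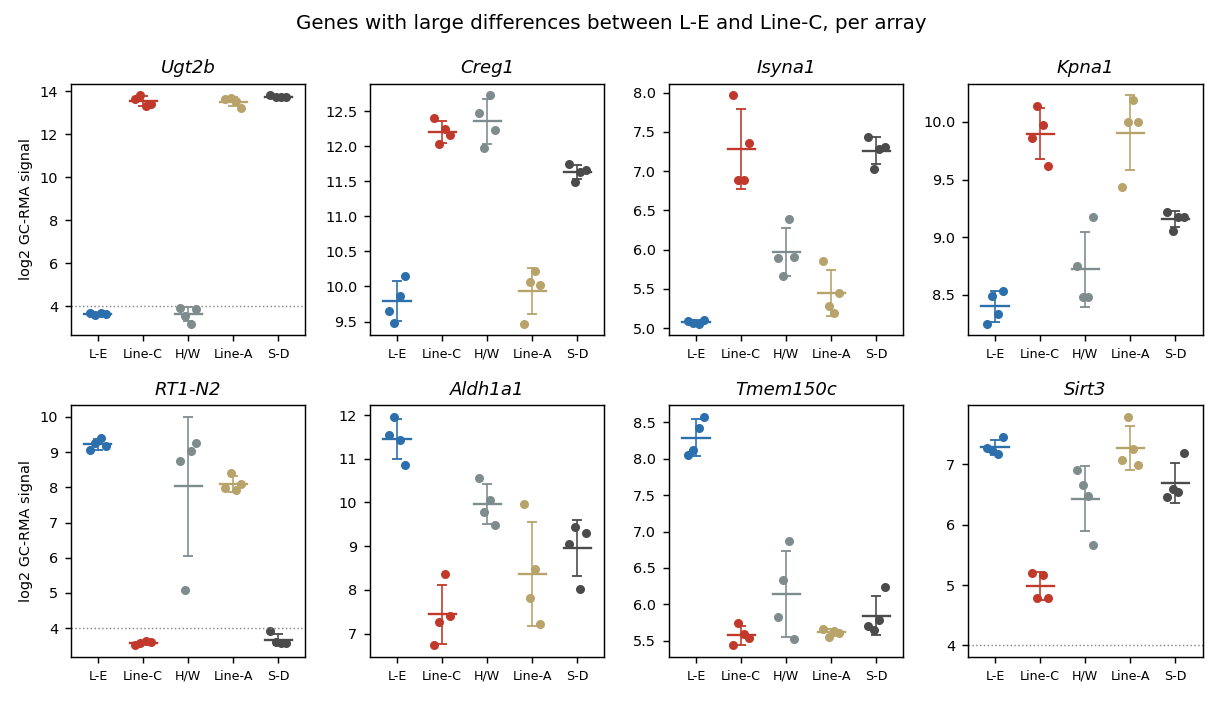
Log2 signal of *Ugt2b*, *Creg1*, *Isyna1*, *Kpna1*, *RT1-N2*, *Aldh1a1*, *Tmem150c* and *Sirt3* (vertical axes) on each array of the 5 strains and lines. Points are arrays, bars are means and error bars SD (n = 4), and a dotted line marks the limit of 4 where a panel reaches down to it. The first 4 genes are higher and the other 4 lower in Line-C than in L-E, without overlap.

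The widest fall was that of *RT1-N2*, a non-classical MHC class I gene on chromosome 20. Its L-E arrays read 9.05, 9.27, 9.40 and 9.16 and its Line-C arrays 3.52, 3.58, 3.62 and 3.61. Every Line-C array was under the limit, at least 37.3-fold lower (adjusted p = 4.04e-05). Line-A had a mean of 8.09 and S-D of 3.67. The H/W arrays read 8.74, 5.08, 9.03 and 9.26, with replicate 2 far under the others. Of the MHC class II genes, which present peptides on macrophages, B cells and dendritic cells, *RT1-Bb* and *RT1-Da* were called. *RT1-Bb* fell from 7.79, 8.66, 7.88 and 7.55 to 6.32, 6.76, 6.06 and 6.23 (3.10-fold, adjusted p = 0.00336) and *RT1-Da* from 9.66 ± 0.39 to 8.85 ± 0.24 (adjusted p = 0.00894). The invariant chain *Cd74* was at 10.80 ± 0.31 and 10.13 ± 0.23 (adjusted p = 0.0148) and *RT1-Ba* at 7.66 ± 0.51 and 7.07 ± 0.20 (adjusted p = 0.111). The second ProbeSet of *RT1-Ba* was at 8.36 ± 0.25 and 6.85 ± 0.38, without overlap (adjusted p = 0.0270). Of 29 expressed genes of the MHC and of antigen processing, *Pdia3* was called higher and *RT1-N2*, *RT1-Bb* and *RT1-Da* lower, with a median difference of 0.04. *RT1-N2* kept its call with scan day as a random block, whereas *RT1-Bb* and *RT1-Da* did not (adjusted p = 0.0294 and 0.0808). Without Line-C replicate 3 *RT1-Bb* was at 0.0135, and without L-E replicate 2 *RT1-Da* was at 0.0333. The summed signal of 11 expressed Kupffer cell and macrophage markers was from 12.81 to 13.26 in L-E and from 12.87 to 13.26 in Line-C, with no marker called.

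*Aldh1a1*, which oxidises retinal to retinoic acid, fell on all arrays, from 11.54, 11.96, 11.43 and 10.86 to 6.73, 7.27, 8.35 and 7.40 (16.1-fold, adjusted p = 0.000118). The other groups lay between these means, at 9.97 in H/W, 8.37 in Line-A and 8.95 in S-D. *Tmem150c*, a multi-pass membrane protein, read 8.05, 8.11, 8.42 and 8.57 in L-E and 5.44, 5.75, 5.59 and 5.53 in Line-C (6.55-fold, adjusted p = 1.08e-06). L-E was the highest of the 5 groups for *Tmem150c*, with H/W, Line-A and S-D at 6.14, 5.62 and 5.85. *Fundc2*, a protein of the mitochondrial outer membrane, was at 6.65 ± 0.22 in L-E, at 4.73 ± 0.04 in Line-C and from 4.92 to 5.20 in the other groups (adjusted p = 5.87e-07). *Sirt3*, the main deacetylase of the mitochondrial matrix, read 7.27, 7.24, 7.18 and 7.46 against 5.20, 4.79, 5.17 and 4.78 (4.92-fold, adjusted p = 2.30e-05). Here Line-C was the lowest group, and Line-A from the same scan day was at 7.27 (Line-C minus Line-A, adjusted p = 3.86e-05). *Met*, the receptor of hepatocyte growth factor, fell from 6.29, 6.22, 5.65 and 5.80 to 4.27, 3.73, 3.45 and 4.37 (at least 3.97-fold, adjusted p = 2.98e-05).

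*Hnrnpul1*, an RNA-binding protein of the nucleus, read 6.75, 6.81, 7.01 and 7.29 in L-E and 4.48, 4.85, 3.65 and 4.02 in Line-C (6.58-fold, adjusted p = 4.15e-05), and Line-A, at 4.36, was beside Line-C. *Olr59*, annotated as an olfactory receptor, fell from 7.60 ± 0.40 to 4.84 ± 0.30 (6.73-fold, adjusted p = 0.000336), with Line-A at 8.44 and S-D at 3.96. The calls of *Aldh1a1*, *Tmem150c*, *Fundc2*, *Sirt3*, *Met*, *Hnrnpul1* and *Olr59* stood under every alternative computed. *C8b*, the beta chain of complement component 8, was tight within each group, from 11.23 to 11.48 in L-E and from 9.04 to 9.18 in Line-C (4.79-fold, adjusted p = 0.00509). With the 8 arrays alone its adjusted p was 7.52e-06, and with scan day as a random block 0.0415, the largest of its range over the alternatives. The protein kinase *Stk24* fell from 7.03 ± 0.53 to 4.59 ± 0.46 (adjusted p = 0.000984), the transcriptional co-repressor *Tle1* from 6.57 ± 0.72 to 4.20 ± 0.51 (adjusted p = 0.00399) and the vesicle membrane protein *Vat1* from 9.12 ± 0.15 to 7.10 ± 0.48 (adjusted p = 0.00162). *Cpd*, a carboxypeptidase of the secretory pathway, read 6.27, 7.80, 8.15 and 8.17 in L-E and 5.97, 5.83, 6.16 and 5.22 in Line-C (adjusted p = 0.00869), with L-E replicate 1 close to the Line-C arrays. With scan day as a random block these 4 genes were at 0.0165, 0.0416, 0.0208 and 0.0756. Leaving out single arrays moved *Tle1* to at most 0.0150 without L-E replicate 1, *C8b* to 0.0156 without Line-C replicate 3 and *Cpd* to 0.0287 without L-E replicate 3.

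Of 19 expressed genes of endoplasmic reticulum and amino acid stress, 3 were called higher in Line-C and none lower, and the means of 13 were above and of 6 below those of L-E. *Sdf2l1*, which assists protein folding in this compartment, rose from 7.70, 7.50, 8.39 and 8.85 to 10.49, 9.68, 9.95 and 9.86 (3.71-fold, adjusted p = 0.000573). *Pdia6*, a protein disulfide isomerase, rose from 11.23, 10.98, 11.36 and 11.52 to 12.32, 11.97, 12.22 and 12.08 (1.83-fold, adjusted p = 0.000126). The lowest Line-C array exceeded the highest L-E array for both genes, as one group did for the other in 28.0% of all expressed genes. *Hspa5*, the central chaperone BiP, rose from 12.92 ± 0.17 to 13.43 ± 0.20 (1.43-fold, adjusted p = 0.00839). Of genes not in the list, *Pdia3* rose from 12.34 ± 0.26 to 13.21 ± 0.16 (adjusted p = 0.00999) and *Dnajb11*, a co-chaperone of BiP, from 8.23 ± 0.25 to 9.11 ± 0.37 (adjusted p = 0.00590). *Pdia4* was at 11.13 ± 0.20 and 11.80 ± 0.27 (adjusted p = 0.0239) and *Hsp90b1* at 12.84 ± 0.22 and 13.05 ± 0.32 (adjusted p = 0.347). The differences of the list ran from -0.51 to 1.89. Their median was 0.13, against 0.05 over all genes tested, whose share with a higher mean was not counted. For *Sdf2l1* the means of H/W, Line-A and S-D, 9.44, 9.75 and 10.01, were all nearer to Line-C than to L-E. *Sdf2l1* and *Pdia6* kept their calls with scan day as a random block, and *Hspa5*, *Pdia3* and *Dnajb11* lost them (adjusted p = 0.0572, 0.0903 and 0.0545). Without L-E replicate 2 these 3 genes were at 0.0310, 0.0368 and 0.0231.

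Of 21 expressed interferon-stimulated genes, 17 had a higher mean in Line-C, and 4 were called higher and 1 lower. *Oas1a*, which makes the oligoadenylate that activates an antiviral ribonuclease, was at 4.01, 4.0, 3.61 and 3.96 in L-E and at 5.34, 6.02, 7.59 and 4.93 in Line-C (at least 3.93-fold, adjusted p = 0.00958). *Irf7*, an interferon regulatory factor, rose from 5.47, 5.86, 5.70 and 5.26 to 6.67, 6.92, 7.43 and 7.18 (2.78-fold, adjusted p = 0.00429). Line-C replicate 3 was the highest of the 8 arrays for both genes. Line-A was at 4.31 and 5.82 and S-D at 5.76 and 6.93. *Ifi27*, a small protein of mitochondrial and nuclear membranes, rose from 12.03, 12.25, 12.13 and 12.02 to 12.88, 13.06, 13.07 and 12.91 (1.83-fold, adjusted p = 2.30e-05), and its neighbour *Ifi27l2b* from 9.96 ± 0.27 to 11.35 ± 0.48 (adjusted p = 0.00551). *Ifi35* on chromosome 10, not in the list, rose from 5.83 ± 0.19 to 7.03 ± 0.47 (adjusted p = 0.00154). *Bst2*, a protein that holds back budding viruses, was at 10.09 ± 0.21 and 11.35 ± 0.48 (adjusted p = 0.0206), and *Ifitm3* at 11.39 ± 0.43 and 12.14 ± 0.19 (adjusted p = 0.135). *Ifitm1* fell, by 0.67 on the log2 scale (adjusted p = 0.00296). The median difference of the list was 0.21, against 0.05 over all genes tested, whose share with a higher mean was not counted. The summed signal of the list was from 13.33 to 13.65 in L-E and from 14.15 to 14.47 in Line-C. *Ifi27* was the only one of those called to keep its call under each alternative. With scan day as a random block *Oas1a* was at 0.0774, *Irf7* at 0.0479, *Ifi27l2b* at 0.0501, *Ifi35* at 0.0179 and *Ifitm1* at 0.0319, and with leaving out 1 array *Oas1a* reached 0.0270 without L-E replicate 3, and *Irf7*, *Ifi27l2b* and *Ifitm1* 0.0174, 0.0212 and 0.0125 without Line-C replicate 3.

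The promoters of 4 of these genes are shown because their sequences hold the letters of the element for which each group is known. They are the 250 bases before the start that RefSeq's promoter table uses on build GRCr8, 5′ to 3′ on the strand of the gene, with the matches in capitals. In *Hspa5* (chr3:38452766-38453015, plus strand) the capitals mark the endoplasmic reticulum stress element, which is CCAAT followed after 9 free bases by CCACG. In *Oas1a* (chr12:41330216-41330465, plus strand), *Irf7* (chr1:205800024-205800273, minus strand) and *Ifi27* (chr6:128355062-128355311, plus strand) they mark GAAA, 2 free bases and GAAA, the core of the interferon-stimulated response element. The last 43 bases shown for *Oas1a* and all of those shown for *Irf7* lie within the annotated span of the gene.
Hspa5: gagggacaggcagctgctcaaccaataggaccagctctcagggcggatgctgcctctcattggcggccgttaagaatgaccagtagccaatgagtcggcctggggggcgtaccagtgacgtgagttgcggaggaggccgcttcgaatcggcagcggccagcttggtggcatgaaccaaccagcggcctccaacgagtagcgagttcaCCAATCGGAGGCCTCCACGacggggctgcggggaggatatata
Oas1a: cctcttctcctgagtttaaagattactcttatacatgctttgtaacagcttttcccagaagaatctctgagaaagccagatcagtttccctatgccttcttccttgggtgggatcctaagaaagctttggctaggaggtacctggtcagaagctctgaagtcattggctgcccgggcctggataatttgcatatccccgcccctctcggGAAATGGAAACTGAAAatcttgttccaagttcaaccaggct
Irf7: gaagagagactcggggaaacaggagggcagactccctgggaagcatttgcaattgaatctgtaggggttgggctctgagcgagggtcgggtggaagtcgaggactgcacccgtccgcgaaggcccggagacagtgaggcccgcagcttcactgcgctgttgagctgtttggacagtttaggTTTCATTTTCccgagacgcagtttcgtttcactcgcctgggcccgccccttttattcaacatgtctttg
Ifi27: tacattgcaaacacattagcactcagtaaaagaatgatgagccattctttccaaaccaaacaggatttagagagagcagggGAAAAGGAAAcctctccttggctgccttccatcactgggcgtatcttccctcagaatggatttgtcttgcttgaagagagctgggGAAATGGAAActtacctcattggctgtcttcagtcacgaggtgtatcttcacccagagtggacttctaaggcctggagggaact
Both strands were searched, and the match in *Irf7* is on the opposite strand, so its capitals read as the reverse complement. The pair of matches in *Oas1a* overlap, and *Ifi27* holds 2 separate ones. Over 27457 rat promoters of the same 250 bases, the stress element was in 21 (0.0765%) and the interferon element in 902 (3.29%). Over the 4579 promoters of expressed genes the shares were 0.218% and 2.69%. Among the genes searched that had an entry, 5 of 8 held the stress element and 5 of 6 the interferon element. These genes were picked by name and were not all called. Their shares can therefore not be set against those over all promoters. Among the 5 with the stress element were *Dnajc3*, *Calr* and *Creld2*, which are not described here. Of the called genes described above that had an entry, *Hspa5* alone held the stress element. *Hsp90b1*, *Bst2* and *Ifitm3*, which were not called, also held theirs, with 2, 2 and 1 matches. The windows of *Sdf2l1*, *Dnajb11* and *Pdia4* did not hold the letters of the stress element, nor that of *Ifi35* those of the interferon element. A match is a description of the sequence, not a site or a cause.

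**Figure D3:**
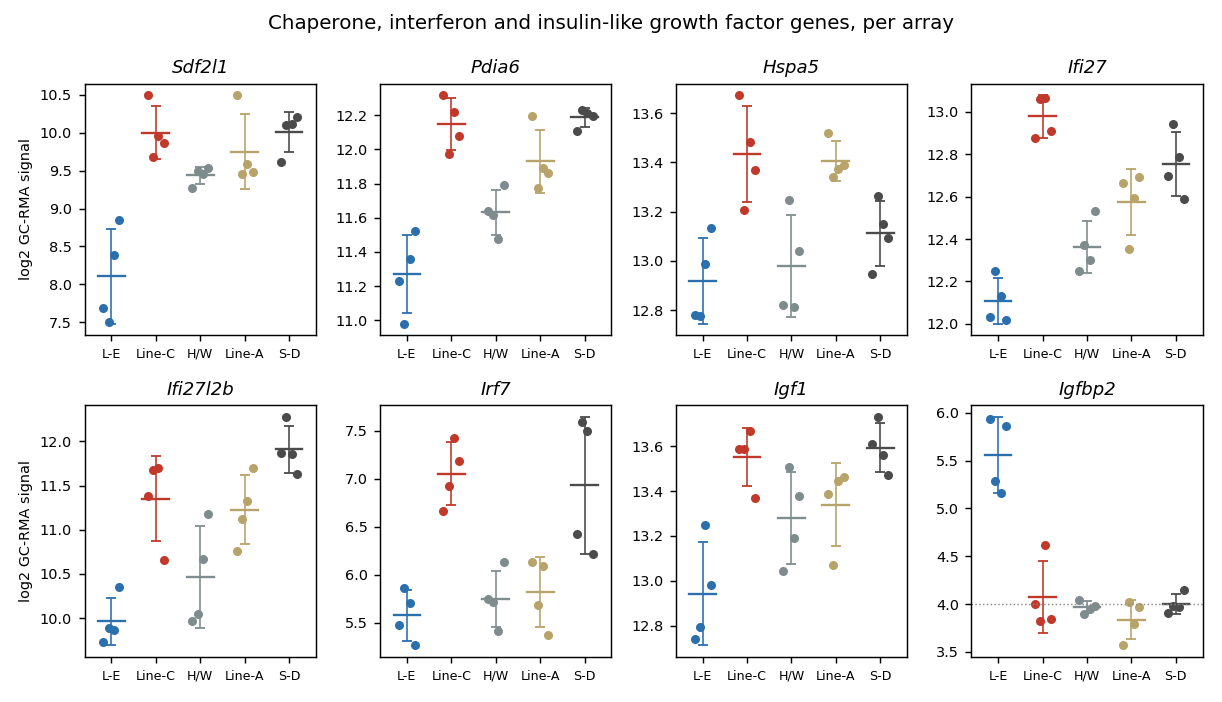
Log2 signal of *Sdf2l1*, *Pdia6*, *Hspa5*, *Ifi27*, *Ifi27l2b*, *Irf7*, *Igf1* and *Igfbp2* (vertical axes) on each array of the 5 strains and lines. Points are arrays, bars are means and error bars SD (n = 4), with a dotted line at 4 where a panel reaches down to it. The first 7 genes are higher and *Igfbp2* is lower in Line-C than in L-E.

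Carriers of growth factors and vitamins moved in both directions. *Igf1*, the growth factor that the liver secretes under growth hormone, rose from 12.74, 12.80, 13.25 and 12.98 to 13.59, 13.59, 13.67 and 13.37 (1.53-fold, adjusted p = 0.00454). A second *Igf1* ProbeSet differed by -0.21 ± 0.12 (SE, adjusted p = 0.189). *Igfbp3*, its main carrier in plasma, rose on both of its ProbeSets, by 0.81 ± 0.13 and 0.84 ± 0.17 (adjusted p = 0.000896 and 0.00597), and Line-A, at 8.18, was at the L-E level of 8.19. *Igfbp2* fell from 5.94, 5.29, 5.16 and 5.86 to 4.0, 3.83, 4.62 and 3.84 (2.81-fold, adjusted p = 9.68e-05). L-E was the highest of the groups for *Igfbp2*, with H/W, Line-A and S-D from 3.84 to 4.0. *Igfbp4* fell from 11.31 ± 0.13 to 10.10 ± 0.06 (adjusted p = 0.00841). *Stat5b*, which carries the signal of growth hormone to the nucleus, fell from 6.12 ± 0.44 to 5.24 ± 0.17 (adjusted p = 0.00560). The ProbeSets of the growth hormone receptor *Ghr* parted, with 0.11 ± 0.09 for one (adjusted p = 0.291) and -1.0 ± 0.12 for the other (adjusted p = 8.47e-05). *Gc*, the vitamin D binding protein, rose by 0.17 ± 0.03 on its brighter ProbeSet and by 1.33 ± 0.08 on the other (adjusted p = 0.00701 and 5.08e-08). *Lrat*, which esterifies retinol for storage, was at 3.68 ± 0.50 in L-E and 4.84 ± 0.24 in Line-C (at least 1.80-fold, adjusted p = 0.000930).

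Of 27 expressed genes of hormone and vitamin carriers and retinoids, 4 were called higher and 3 lower, with a median difference of -0.09. *Igfbp2* and *Aldh1a1* kept their calls with scan day as a random block, and *Igf1*, *Igfbp3*, *Igfbp4*, *Stat5b*, *Lrat* and the brighter *Gc* ProbeSet lost them, with adjusted p from 0.0131 for *Igfbp3* to 0.0716 for *Igfbp4*. Without Line-C replicate 3 *Igf1* was at 0.0179, without L-E replicate 1 *Igfbp4* at 0.0256, without L-E replicate 2 *Stat5b* at 0.0216 and without Line-C replicate 2 *Gc* at 0.0258. Among genes with sex-biased expression in rat liver, which growth hormone sets, the male-specific *Cyp2c11* was at 13.48 ± 0.18 and 13.61 ± 0.12 (adjusted p = 0.319). *Cyp2c12*, known from female liver, was at 11.13 ± 0.27 and 11.79 ± 0.74 (adjusted p = 0.369), while H/W and Line-A had 6.46 and 7.93.

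In phase I oxidation 1 of 55 expressed genes was called higher, *Adh4*, and 3 lower, with a median difference of 0.13. Besides *Aldh1a1*, *Cyp2a1*, a testosterone hydroxylase, fell from 9.33, 9.03, 8.74 and 8.70 to 7.51, 7.75, 7.77 and 7.56 (2.46-fold, adjusted p = 8.47e-05) and kept its call under every alternative. The monoamine oxidase gene *Maoa* fell from 8.76 ± 0.24 to 8.12 ± 0.19 (adjusted p = 0.00522, and 0.0549 with scan day as a random block). Without L-E replicate 2 it was at 0.0210. Among abundant cytochromes, *Cyp3a2* was at 14.07 ± 0.13 and 14.05 ± 0.12 (adjusted p = 0.877), *Cyp2e1* at 15.05 ± 0.04 and 14.65 ± 0.18 (adjusted p = 0.0153) and *Cyp1a2*, a target of the aryl hydrocarbon receptor, at 14.25 ± 0.05 and 14.38 ± 0.10 (adjusted p = 0.301). Of 7 expressed genes of the receptor complex and its targets, none passed 1% in limma and 1 passed 5%. *Ahr* itself, at 3.07 ± 0.02 and 3.13 ± 0.03, lay under the limit in both groups, as did *Cyp1a1* and *Cyp1b1*, so that no fold is given. The second *Ahr* ProbeSet was at 2.73, 4.90, 2.80 and 4.0 in L-E and 2.65 ± 0.04 in Line-C (adjusted p = 0.0506), so that 2 L-E arrays were above the limit. *Arnt*, the partner of the receptor, was at 3.57 ± 0.15 and 3.03 ± 0.02, also under the limit. Its adjusted p in limma was 0.00170, and 0.0178 with scan day as a random block. It thus passed 1%, but it is not among the 7 expressed genes.

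Of 39 expressed genes of fatty acid oxidation, 34 had a lower mean in Line-C, but 2 were called lower at 1% and 1 higher. *Ehhadh*, the bifunctional enzyme of peroxisomes, fell from 13.23, 13.69, 12.68 and 12.68 to 11.43, 11.41, 11.57 and 11.82 (2.85-fold, adjusted p = 0.000708). *Acox3*, an acyl-CoA oxidase, fell from 8.99 ± 0.14 to 8.07 ± 0.21 (adjusted p = 0.00423), and *Echs1*, the mitochondrial enoyl-CoA hydratase, rose from 10.80 ± 0.10 to 11.21 ± 0.02 (adjusted p = 0.00597). *Cyp4a1*, a hydroxylase of fatty acids, was at 13.29, 13.73, 13.18 and 12.24 in L-E and at 10.80, 10.81, 11.06 and 11.54 in Line-C. These groups did not overlap, but the difference of -2.06 ± 0.56 missed 1% (SE, adjusted p = 0.0277). *Pdk4*, which holds back the use of pyruvate, was at 7.63 ± 0.72 and 6.41 ± 0.47 (adjusted p = 0.0150). *Cpt1a*, the entry step for fatty acids into mitochondria, was at 11.31 ± 0.80 and 10.42 ± 0.22 on one ProbeSet (adjusted p = 0.118) and at 10.56 ± 0.73 and 8.86 ± 0.33 on the other, without overlap (adjusted p = 0.0291), whereas *Fabp1*, the fatty acid binding protein of the liver, was at 15.40 and 15.38 (adjusted p = 0.706). At 5%, where 19.9% of all genes were called, 11.5% higher and 8.43% lower, the list had 2 genes higher and 13 lower. Its median difference was -0.32, against 0.05 over all genes tested, whose share with a lower mean was not counted. L-E replicate 4 was the lowest L-E array for *Cyp4a1* and *Cpt1a*. With scan day as a random block none of *Ehhadh*, *Acox3* and *Echs1* was called (adjusted p = 0.0120, 0.0435 and 0.0583). Without Line-C replicate 2 *Acox3* was at 0.0163, and without L-E replicate 3 *Echs1* was at 0.0205.

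Transcription factors of hepatic metabolism were among the genes called. *Mlxipl*, the carbohydrate response factor ChREBP, fell from 9.01, 9.01, 9.48 and 9.63 to 7.49, 7.62, 7.55 and 7.42 (3.40-fold, adjusted p = 0.000140). *Cebpa*, a factor that maintains the hepatocyte state, fell from 9.28, 8.94, 9.05 and 9.11 to 7.67, 7.76, 7.43 and 8.11 (2.55-fold, adjusted p = 0.000573). Line-A, at 7.91 and 7.86, was near Line-C for both. *Maf*, a basic leucine zipper factor, fell on both expressed ProbeSets, by 1.04 and 2.08 on the log2 scale (adjusted p = 0.000410 and 0.000488). *Ctnnb1*, which codes for beta-catenin, rose on its 3 expressed ProbeSets, by 0.46, 0.65 and 1.23 (adjusted p = 0.000573, 0.000845 and 0.00193). *Nr1h4*, the bile acid receptor FXR, rose from 7.88 ± 0.15 to 8.83 ± 0.28 (adjusted p = 0.00699) and *Nr1h3*, the oxysterol receptor LXR alpha, from 9.80 ± 0.16 to 10.27 ± 0.10 (adjusted p = 0.00546). *Hnf4a* was at 10.39 ± 0.43 and 9.55 ± 0.29 (adjusted p = 0.173). Of 23 expressed nuclear receptors and liver factors, 2 were called higher and 1 lower, against 3.41% and 3.43% of all genes. The median difference was -0.02. The differences of the list ran from -3.595 to 2.43, and the members at these ends were not called. *Mlxipl*, *Cebpa*, *Maf* and *Ctnnb1* kept their calls with scan day as a random block, and *Nr1h4* and *Nr1h3* were at 0.0634 and 0.0448. They reached 0.0217 without L-E replicate 2 and 0.0196 without L-E replicate 1.

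Of 44 expressed solute carriers, 0 were called higher and 6 lower at 1%, against 3.41% and 3.43% of all genes. At 5%, 2 were higher and 9 lower, against 11.5% and 8.43% of all genes. By mean, 15 were higher and 29 lower in Line-C, with differences from -1.53 to 1.76. The widest rise was not called at 1%. The median difference was -0.12, against 0.05 over all genes tested. *Slco2b1*, an uptake carrier of organic anions, fell from 9.21, 9.40, 9.43 and 9.40 to 7.96, 7.69, 8.04 and 8.39 (2.54-fold, adjusted p = 4.53e-05). Its second ProbeSet fell by 0.84 ± 0.15 (SE, adjusted p = 0.00215). *Slc4a2*, an exchanger of chloride and bicarbonate, fell from 8.37, 8.58, 8.57 and 8.94 to 7.05, 7.11, 6.85 and 7.34 (2.88-fold, adjusted p = 0.000483). *Slc30a1*, an exporter of zinc, fell by 1.13 ± 0.23 (adjusted p = 0.00488), *Slc25a10*, the mitochondrial dicarboxylate carrier, by 0.63 ± 0.11 (adjusted p = 0.00151), *Slc25a1*, the citrate carrier, by 0.53 ± 0.10 (adjusted p = 0.00349) and *Slc38a3*, a glutamine carrier, by 0.48 ± 0.08 (adjusted p = 0.00154). *Slco2b1* and *Slc4a2* kept their calls under every alternative, while the other 4 had adjusted p from 0.0214 to 0.0498 with scan day as a random block. *Slc30a1* was at 0.0197 without Line-C replicate 3, and *Slc25a1* at 0.0127 without L-E replicate 3. In iron handling 2 of 13 expressed genes were called, both lower, against 6.85% of all genes called. By mean, 6 were higher and 7 lower in Line-C, with a median difference of -0.06. *Hmox1*, which breaks down heme, fell from 7.01, 7.62, 6.71 and 7.28 to 5.58, 5.61, 5.01 and 5.60 (3.26-fold, adjusted p = 0.000653), and *Ireb2*, an iron-responsive RNA-binding protein, fell by 0.89 ± 0.15 (adjusted p = 0.00152). With scan day as a random block they were at 0.0112 and 0.0184.

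**Figure D4:**
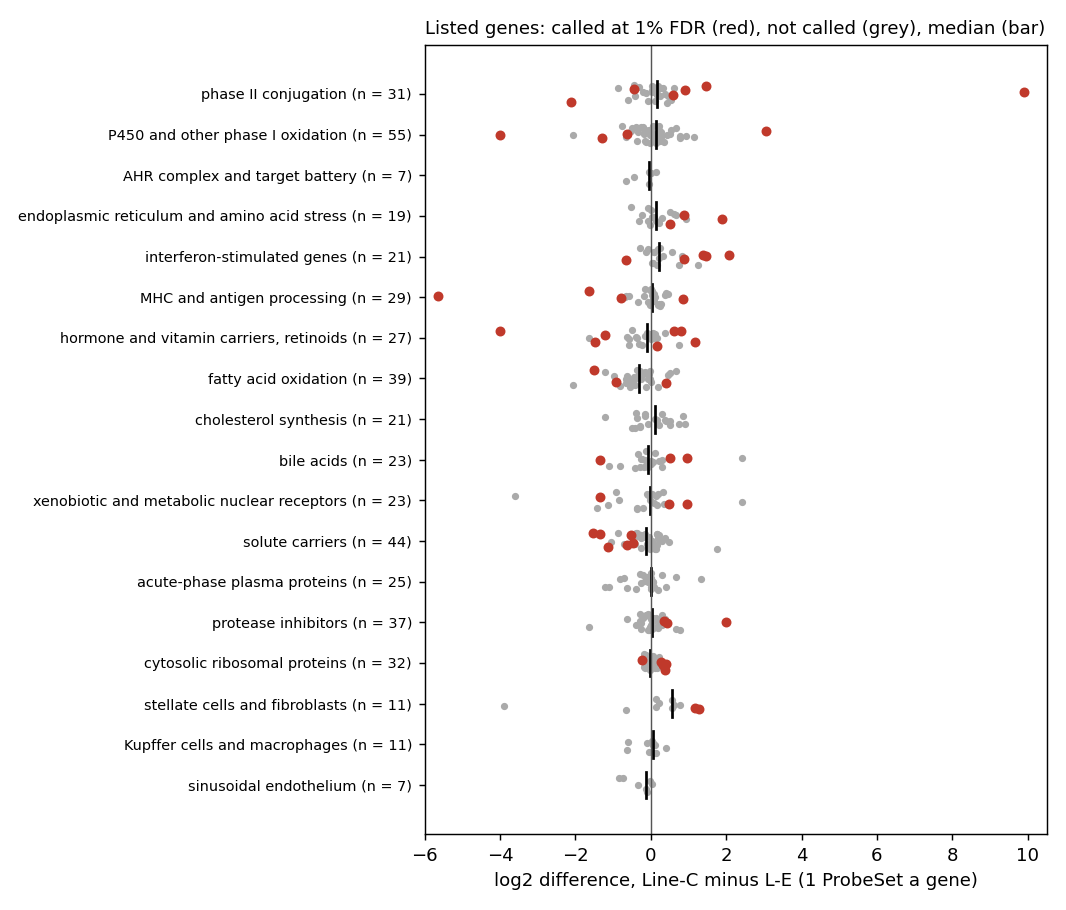
Log2 difference, Line-C minus L-E (horizontal axis), of each expressed gene in 18 gene lists. Each point is 1 gene, red where it is called at 1% false-discovery rate, and a short line marks the median of the list, which is -0.32 for fatty acid oxidation and 0.21 for interferon-stimulated genes.

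Over the 38 lists, 68 of 691 expressed genes were called (9.84%), 37 higher and 31 lower, against 6.85% of all genes. Cholesterol synthesis (21 expressed), acute-phase plasma proteins (25), the circadian clock (9) and the renin-angiotensin system (3) had no gene called at 1% in limma, and 4, 7, 0 and 0 at 5%. Of 59 expressed genes of the respiratory chain and ATP synthase 1 was called, lower. Of 32 expressed ribosomal protein genes 4 were called higher and 1 lower, among them *Rpl27*, which rose by 0.40 ± 0.05 (SE, adjusted p = 9.69e-05) and kept its call under every alternative. The tissue label was borne out by its markers: *Alb*, the gene of albumin, was at 16.58 and 16.69, and 14 expressed hepatocyte markers had a summed signal from 18.78 to 18.85 in L-E and from 18.86 to 18.94 in Line-C. Among them *Apoh*, a phospholipid-binding plasma protein, rose by 0.29 ± 0.04 (adjusted p = 0.000113).

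Of 11 expressed markers of stellate cells and fibroblasts, 2 were called higher and none lower, and at 5% the counts were 4 and 1. *Lox*, which cross-links collagen, had the widest difference of the list, at 6.10, 5.26, 6.92 and 7.71 in L-E and from 2.39 to 3.12 in Line-C, under the limit (-3.88 on the log2 scale, adjusted p = 0.0162). Its second ProbeSet differed by -1.82 (adjusted p = 0.0334). With the 8 arrays alone 1 marker was called lower. Their summed signal was from 9.57 to 10.18 in L-E and from 10.24 to 10.83 in Line-C, and its part in *Lrat*, *Itga1* and *Col14a1* was not tested. *Sparc*, a matrix glycoprotein, rose from 7.41, 6.79, 7.19 and 7.28 to 8.46, 8.21, 8.58 and 8.54 (2.43-fold, adjusted p = 0.000412) on its called ProbeSet, whereas the other differed by -0.64 ± 0.23 (SE, adjusted p = 0.0637). *Col3a1*, a fibrillar collagen, was at 8.75 ± 0.29 and 9.52 ± 0.43 (adjusted p = 0.0289). No marker of the sinusoidal endothelium (7 expressed), of T and NK cells (2), of B and plasma cells (2), of erythroid cells (3) or of neutrophils and mast cells (1) was called at 1% in limma. At 5% the counts were 1, 0, 1, 0 and 1. The erythroid sum was from 12.27 to 13.22 in L-E and from 10.64 to 12.34 in Line-C. Of 3 expressed cholangiocyte markers *Slc4a2* was the one called, lower. The other 2 had a higher mean in Line-C, and the median difference was 0.33. The sum of the 3, in which *Slc4a2* weighed most, was from 8.79 to 9.33 in L-E and from 8.23 to 8.50 in Line-C.

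Neighbours were read from the order of measured genes along each chromosome. Of 367 called genes with a position, 55 (15%) had a called neighbour, against 13.2% of all genes with a position, in 27 runs, of which 1 held 3 genes. This was *Rpl27*, *Ifi35* and *Vat1* on chromosome 10, where the ribosomal gene and the interferon gene rose while *Vat1* fell. On chromosome 14 *Sult1b1* and *Ugt2b* rose together, and *Tmem150c* and its neighbour *Sec31a*, a coat protein of vesicles that leave the endoplasmic reticulum, fell together. *Sec31a* was at 8.46 ± 0.36 and 7.07 ± 0.05 (adjusted p = 0.00415, and 0.0452 with scan day as a random block). It reached 0.0135 without L-E replicate 4. On chromosome 6 *Ifi27* and *Ifi27l2b* rose together. No placement test was made.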

How the data were processed

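Liver RNA was hybridised to Affymetrix RAE230A arrays, 1 rat per array. The deposited values are log2 signals per ProbeSet, which the authors made by GC-RMA (background correction by probe GC content, quantile normalization across arrays, probe summary) with R 2.6.1, affy 1.12.0 and GCRMA 2.10.0 per the submitters' notes. No further scaling was applied. Of 15923 ProbeSets, 12789 carried 1 gene symbol. Read depth does not exist for arrays, and their number limits the precision. The array header files gave scan day and chip lot.

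Group means of the 5 strains and lines were estimated from all 20 arrays in R 4.3.3 with limma 3.58.1 (moderated variances, two-sided), and the contrast Line-C minus L-E was adjusted by Benjamini-Hochberg over all ProbeSets. Calls were made at 1% and counted at a mean signal of at least 4. The model was tested on simulated data. Alternatives were a further quantile normalization, equal array medians, limma's trend, array weights, a replicate block, the 8 arrays alone, scan day as a random block (statmod 1.5.0), only expressed ProbeSets, a limit of 5, 5% and each array left out. Summed signals of lists are log2 of summed linear signals. Errors are SD (n = 4) unless marked SE.

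Genes were named by rule: the 15 widest called differences in each direction, up to 4 called and 2 bright uncalled members per list, *Ahr*, *Arnt*, *Cyp1a1*, *Cyp1a2* and *Cyp1b1*, genes of the study's primer table and runs of 3 called neighbours. Not all were described. *H2az1*, *Ctnnb1*, *Maf*, *Dnajb11*, *Pdia4*, *Ugt2b1*, *Ugt2b15*, *Ugt2b35*, *Cyp2c11*, *Cyp4a1*, *Cpt1a*, *Pdk4*, *Gc*, *Ghr*, *Igf1*, *Igfbp3*, *Mgst3*, *Slc25a1*, *Slc38a3*, *Stat5b*, *Letm1*, *RT1-Ba*, *Ifitm1*, *Lox* and *Sec31a*, as well as the ProbeSets without a symbol, were picked with their values in view and lie outside the rule. The members, the 38 gene lists, the motifs and the promoters were chosen with earlier results of these data known. Promoter sequences are from RefSeq (GRCr8).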

Additional observations from a re-analysis of the deposited data

Results flagged for a closer look

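In 10 of 220 groups of 4 arrays, 1 array lay far from the other 3 for a described gene. Chance gives this in about 1 in 20 groups, so that the number is not above it. In L-E, replicate 2 was at 11.53 for *Cyp2c12* with the others from 10.94 to 11.02, and at 13.87 for *Cyp3a2* with the others from 14.13 to 14.14. Replicate 3 of L-E was at 8.10 for *Nr1h4* against 7.78 to 7.81, and at 3.61 for *Oas1a* against 3.96 to 4.01. Replicate 1 of L-E was at 9.21 for *Slco2b1* against 9.40 to 9.43. In Line-C, replicate 3 was at 5.01 for *Hmox1* against 5.58 to 5.61, at 10.13 for *Nr1h3* against 10.30 to 10.33 and at 3.12 for *Lox* against 2.39 to 2.48. Line-C replicate 2 was at 9.21 for *RT1-Da* against 8.71 to 8.79, and replicate 4 at 5.23 for *Uba6* against 5.97 to 6.07.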

How the results depend on the processing

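All 535 ProbeSets called kept their direction under every alternative. Direction could not change where the estimate stays the same. This holds for limma's trend, the replicate block, the 8 arrays alone, expressed ProbeSets only, a limit of 5, 5% and arrays of other groups left out. The number called was 546 after a further quantile normalization, 549 with limma's trend, 736 when only expressed ProbeSets were fitted and 497 at a limit of 5. It was 1595 with array weights (912 higher, 683 lower), 1544 at 5% (837 and 707), 200 with the 8 arrays alone (79 and 121) and 110 with scan day as a random block (51 and 59, correlation 0.176). Equal array medians gave 488, with 115 higher. Of the 535, 534 were still called with array weights, 410 with equal medians, 156 with the 8 arrays and 110 with the scan day block. Same-numbered replicates did not deviate together (r = -0.0234, -0.00755, 0.158 and -0.0360), and a replicate block called 448, of which 415 were among the 535. Of the described genes it ended the calls of *Mgst3*, *Col14a1*, *Hspa5*, *Pdia3*, *Oas1a*, *RT1-Da*, *Igfbp4*, *Nr1h4*, *Nr1h3* and *Slc30a1* (adjusted p from 0.0114 to 0.0198), and a further quantile normalization those of *Pdia3*, *Oas1a* and *Gc* (0.0106, 0.0113 and 0.0507).

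Leaving out 1 array gave from 316 (Line-C replicate 3) to 863 (H/W replicate 3), with from 124 (L-E replicate 1) to 418 higher and from 179 to 445 lower. Beyond 1.5 times the count were also L-E replicates 1 and 2 (343 and 350) and Line-C replicate 2 (355). The list genes called, 68 as reported, were 160 with array weights, 174 at 5%, 27 with the 8 arrays, 17 with the scan day block and from 35 to 108 with 1 array left out. Of the 30 genes with the widest differences, 18 stayed called with the 8 arrays, 15 with the scan day block and from 21 to 30 with 1 array left out. Called genes with a called neighbour, 55 as reported, were 401, 385, 96, 8 and 6 with array weights, at 5%, with expressed ProbeSets only, with the 8 arrays and with the scan day block, and from 17 to 120 with 1 array left out. The cause was not tested. Scan day, chip lot and strain cannot be told apart, signals under 4 give bounds only, and probes that lie on strain variants were not examined.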

Other observations

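The remaining lists were also read from the comparison of Line-C with L-E, in which 3.41% of all genes were called higher and 3.43% lower. Counts this small are not read as results about a list. In bile acid genes 2 of 23 expressed were called higher and 1 lower, and in sterol transport and lipoproteins 1 of 18 higher and 1 lower. Fatty acid synthesis (22 expressed) and the antioxidant response (22) had 1 called each, *Mlxipl* and *Hmox1*, both lower. In gluconeogenesis and glycolysis 2 of 24 were lower, in amino acid and urea metabolism 3 of 57 were higher and 1 lower, in protease inhibitors 3 of 37 were higher, and in lysosome and autophagy 2 of 31 were higher and 1 lower. Pericentral hepatocyte markers had 1 of 8 called higher and periportal markers 1 of 12 called lower. By mean, 2 pericentral markers were higher and 6 lower in Line-C, and 7 periportal markers were higher and 5 lower. Male-biased liver genes had 1 of 16 called higher and 1 lower, and female-biased genes 2 of 11 called lower. By mean, 5 female-biased genes were higher and 6 lower, with differences from -3.595 to 0.77. The members at both ends were not called.

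*Agtr1a*, the angiotensin receptor, was under the limit in both groups, at 3.54 ± 0.39 in L-E and 3.91 ± 0.22 in Line-C, while H/W, Line-A and S-D were at 11.12, 10.79 and 10.70. Its second ProbeSet was at 2.69 and 2.72 against 9.39, 8.51 and 8.85. The ProbeSets of *Letm1*, a protein of the mitochondrial inner membrane, parted. One was at 7.50 ± 0.30 in L-E and 7.55 ± 0.06 in Line-C (limma, adjusted p = 0.841), and the other read 4.95, 4.50, 4.50 and 5.17 in L-E and 7.91, 7.25, 7.41 and 7.31 in Line-C (adjusted p = 7.44e-08). Of 50 called genes with several expressed ProbeSets, 12 had all of them called in 1 direction and 13 held ProbeSets of opposite sign.

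Of the ProbeSets called, 83 carry no single gene symbol, 38 higher and 45 lower in Line-C. The widest rises among them were those of 1370988_at, from 4.77 ± 0.14 to 11.06 ± 0.42, with H/W at 11.27 and Line-A at 4.83, and of 1389990_at, from 4.60 ± 0.22 to 10.19 ± 0.28, with H/W at 11.14 and Line-A at 4.15. The widest falls were those of 1377015_at, from 10.75 ± 0.46 to 8.77 ± 0.35, and of 1389412_at, from 8.72 ± 0.54 to 6.89 ± 0.62.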
